A study of Peromyscus polionotus with 11 samples.

Results

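Imprinted genes are expressed mainly or only from the copy inherited from 1 parent. The members described here are 36 genes that are imprinted in the house mouse. The set was named from what is known of imprinting, with earlier results of these arrays already known. A member was kept where at least 1 probe set carried its gene symbol and no other. This held for 33 of the 36 genes, with 63 of the 22626 probe sets tested. Inpp5f and Ppp1r9a had no probe set, and H19 had only a probe set that it shares with another symbol.

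RNA came from micropunches of the oldfield mouse, Peromyscus polionotus, and was hybridised to 11 Affymetrix arrays designed for the house mouse. The medial preoptic area (MPOA) of long-day animals gave 3 arrays (numbered 1 to 3), and that of short-day animals 3 (4 to 6). The bed nucleus of the stria terminalis (BNST) gave 3 long-day arrays (1 to 3) and 2 short-day arrays (4 and 5). The labels give no genotype, treatment, sex or age beyond species, nucleus and day length, and do not say whether a sample pools several animals, so p-values measure the spread between these samples. The question of the study was whether day length alters gene expression in these nuclei.

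Imprinting is mostly set by DNA methylation laid down in the germ line, and it often holds clusters of neighbouring genes under shared control. Many imprinted genes act on growth, and the hypothalamus is one of the brain regions where they are most used. There, several paternally expressed genes take part in feeding, hormone release and maternal care. An array of this kind sums the transcripts of both parental copies, so the values below are total levels and say nothing of which copy was read. Members were sorted by the copy known to be expressed in at least some tissues of the house mouse. Whether each is imprinted in the brain was not assessed. The paternal copy is the expressed one for 15 and the maternal copy for 18. For 3 (Gnas, Grb10 and Ddc) the sorting depends on tissue or transcript. Of these 14, 16 and 3 had a probe set. Where a gene had several, the one with the highest mean over all arrays stands for it unless another is named.

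All arrays had a median intensity of 19. No member was at 0, but 10 of the 33 had a mean of 19 or less: Calcr, Dcn, Ddc, Dlk1, Impact, Mest, Mkrn3, Plagl1, Usp29 and Zim1. Near that level the rounding of the deposited values to whole numbers is a coarse step, 0.074 on the log2 scale at 19 and 0.138 at 10. On the first principal component of all probe sets, the short-day MPOA array 6 lay at -31.2, apart from the other 10 arrays (-6.63 to 25.4). At the opposite end, the long-day BNST arrays 1 and 2 lay at 25.4 and 19.3, and the next array at 7.57. The counts of called member probe sets below are also given without the MPOA array 6. Markers of hypothalamic and preoptic neurons separated the punches only in part: 17 of the 25 measured were lower and 8 higher in the BNST, and the mean log2 level of the list overlapped between the nuclei. Among those called, Gal, the neuropeptide galanin, was higher in the MPOA (95.7 and 115 in long and short days) than in the BNST (67.3 and 67.0). Otp was higher in the BNST, a call that was lost when any of several single arrays was left out. Esr1, the oestrogen receptor of both nuclei, read only 10.7 to 14.0 as group means.

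The imprinted genes that differed between the nuclei were Grb10, Gnas, Ndn and Nnat, and all 4 were lower in the BNST than in the MPOA. Averaged over day lengths, Grb10 was lower by 0.74 ± 0.09 on the log2 scale (SE), Gnas by 0.70 ± 0.11, Ndn by 0.58 ± 0.11 and Nnat by 0.50 ± 0.11. No member passed in the other direction. In bulk punches, fewer cells of a type and less RNA per cell cannot be told apart. With limma on all 22626 probe sets and a threshold of 0.05 on the Benjamini-Hochberg adjusted p, 5 of the 63 member probe sets passed (2 of them of Ndn), or 4 of the 33 genes. Over all probe sets 1.03% passed, 0.566% as lower and 0.464% as higher in the BNST. At an unadjusted p under 0.05 there were 8 members lower and 3 higher, against 11.9% of all probe sets. Without the MPOA array 6 the same 5 member probe sets passed.

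Grb10 encodes an adaptor protein that binds the insulin and insulin-like growth factor receptors and dampens their signal. In the house mouse neurons read it from the paternal copy and most other tissues from the maternal one. Its intensity was 665, 689 and 678 on the long-day and 756, 731 and 736 on the short-day MPOA arrays. On the long-day BNST arrays it was 475, 458 and 433, and on the short-day ones 412 and 376. Every BNST array lay below every MPOA array. The adjusted p was 1.9e-04 (limma), and the call was kept in 21 of 21 alternative settings, in which the difference lay between -0.78 and -0.71. The 2 further Grb10 probe sets had means of 19.1 and 14.5, and gave -0.01 and 0.22, neither past the threshold.

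Gnas encodes the alpha subunit of the stimulatory G protein, which couples hormone and dopamine receptors to cyclic AMP. Its locus makes several transcripts from alternative first exons, some from each parental copy, and the suffix of the called probe set (_s_at) marks a match to several transcripts. It read 3609, 5759 and 4465 in long-day and 4896, 5514 and 4656 in short-day MPOA. In the BNST the long-day arrays read 2874, 3179 and 3524 and the short-day arrays 2749 and 2637. The highest BNST value stayed below the lowest MPOA value by a small margin, 3524 against 3609. The adjusted p was 0.00261 (limma), and the call was kept in 21 of 21 settings. The 3 further Gnas probe sets had means of 11.3 to 23.4, and differences of -0.03 to 0.02.

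Ndn encodes necdin, a MAGE family protein of postmitotic neurons, read from the paternal copy of the region that is lost in Prader-Willi syndrome. Its intensity was 2542, 3375 and 2635 in long-day and 2764, 3230 and 3604 in short-day MPOA. The BNST gave 2255, 1929 and 2235 under long days, then 1695 and 2127 under short days. The nuclei did not overlap on this probe set (adjusted p = 0.0118, limma). The call was kept in 20 of 21 settings and lost without the short-day BNST array 4 (adjusted p = 0.107, limma).

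Ndn has 8 probe sets on the array, more than any other member, and all 8 had a negative difference, from -0.58 to -0.05. The other one that passed had a mean of 35.6 (-0.50 ± 0.11, adjusted p = 0.0239, limma), and its call was lost in 7 of 20 settings. Both have the suffix _x_at, which marks probes that may also bind other sequences. The brightest Ndn probe set without that suffix read 185, 205 and 166 in long-day and 187, 188 and 229 in short-day MPOA, against 132, 152 and 145 and 173 and 163 in the BNST. Its difference, -0.31, did not pass (adjusted p = 0.159, limma), and its short-day BNST array 4, at 173, lay above the lowest MPOA value.

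Nnat encodes neuronatin, a small membrane proteolipid of the endoplasmic reticulum that is abundant in the developing brain and in the hypothalamus. It is read from the paternal copy. Its intensity was 399, 448 and 311 in long-day and 427, 430 and 377 in short-day MPOA. Long-day BNST gave 374, 303 and 277, and short-day BNST 264 and 234. The long-day groups overlapped, and in short days both BNST arrays lay below all MPOA arrays. Nnat passed by the smallest margin of the 4 (adjusted p = 0.0339, limma). Its call was lost in 8 of 21 settings, each of which left out 1 array.

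**Figure D1:**
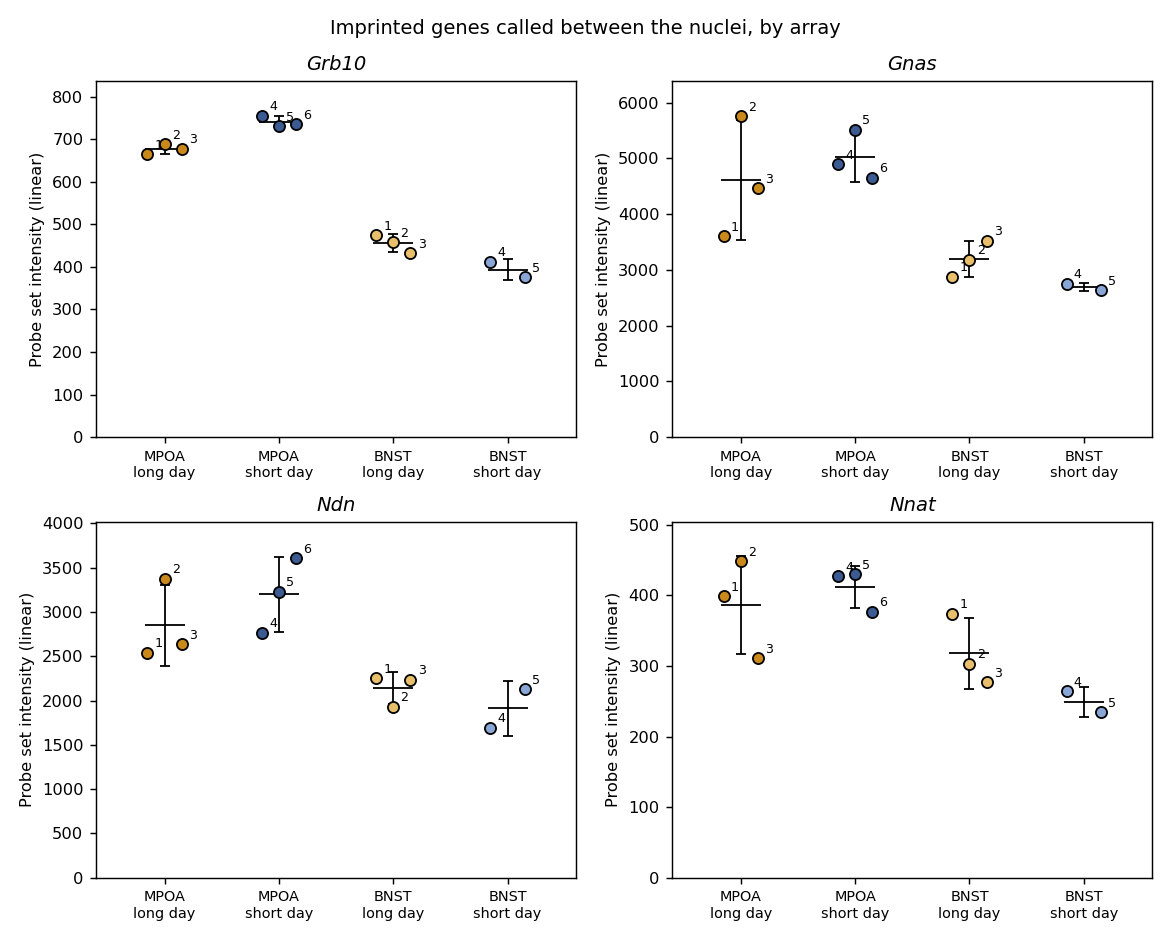
Intensity (linear scale from 0) of the Grb10, Gnas, Ndn and Nnat probe sets on each array, by nucleus and day length, with the sample number beside each point; bars are the group mean and its SD (n = 3, or 2 for short-day BNST). For Grb10, Gnas and Ndn every BNST point lies below every MPOA point, whereas the long-day Nnat groups overlap.

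Some of these calls were lost when 1 array was left out, while the differences stayed similar in size. Over the single-array omissions and the other settings, Ndn lay between -0.66 and -0.49, its second called probe set between -0.57 and -0.43 and Nnat between -0.57 and -0.44. The number of calls over all 22626 probe sets also went down, from 233 to between 70 and 224. The member count of 5 member probe sets fell to 3 without the MPOA long-day array 2, the MPOA short-day array 5, the BNST long-day array 2 or the BNST short-day array 5. Without the BNST short-day array 4 it was 2, those of Grb10 and Gnas. All 4 genes were among the 7 members with a mean intensity above 200, a limit chosen after the values were seen. Of all 722 genes above 200, 6.79% passed between the nuclei, against 1.26% of all 12393 genes, so bright probe sets in general passed more often. Without the MPOA array 6 these shares were 6.65% and 1.21%, and with any other array left out the share of the bright genes was 2.77% to 6.37%.

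Among the members that did not pass between the nuclei, the next smallest p-values belonged to Peg10, Nap1l4, Meg3 and Peg3. Peg10, a paternally expressed gene derived from a retrotransposon, read 68, 61 and 60 in long-day and 59, 54 and 53 in short-day MPOA. The BNST arrays read 52, 43 and 46, and 45 and 45. Its difference was -0.36 ± 0.09 (adjusted p = 0.0707, limma), with no overlap between the nuclei. Nap1l4, a nucleosome assembly protein, read 41 to 51 in the MPOA and 29 to 40 in the BNST (-0.35 ± 0.10, adjusted p = 0.0995, limma). Peg3, a paternally expressed zinc finger gene known for its part in maternal behaviour, read 24 to 34 in the MPOA and 21 to 23 in the BNST (-0.32 ± 0.10, adjusted p = 0.142, limma). Its dimmer probe sets, with means of 14.7 and 13.8, were at -0.13 and -0.09, and on both the nuclei overlapped. Peg3 and Nap1l4 are singled out here after their values were seen, because their nuclei did not overlap.

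In all, 6 of the 33 members had every BNST array below every MPOA array (Grb10, Gnas, Ndn, Peg10, Nap1l4 and Peg3), and 0 had every BNST array above. Over all 12393 genes, each by its brightest probe set, 0.96% were separated with the BNST lower, 0.799% with the BNST higher and 1.76% in either direction. Over all probe sets these shares were 0.769%, 0.703% and 1.47%. The median difference of the 33 members was -0.09, with 22 below 0 and 11 above, beside a median of 0.00 over all 12393 genes, of which 48.9% were below 0. The paternally expressed members had 9 of 14 below 0 (median -0.07, 2 called) and the maternally expressed ones 10 of 16 (median -0.07, 0 called). The maternal group held 1 member with an unadjusted p under 0.05 in each direction, Nap1l4 and Meg3. The 3 genes of mixed origin were all below 0, and 2 of them were called. Ddc, the decarboxylase that makes dopamine and serotonin, was the exception at -0.21 ± 0.13, or -0.11 without the MPOA array 4.

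**Figure D2:**
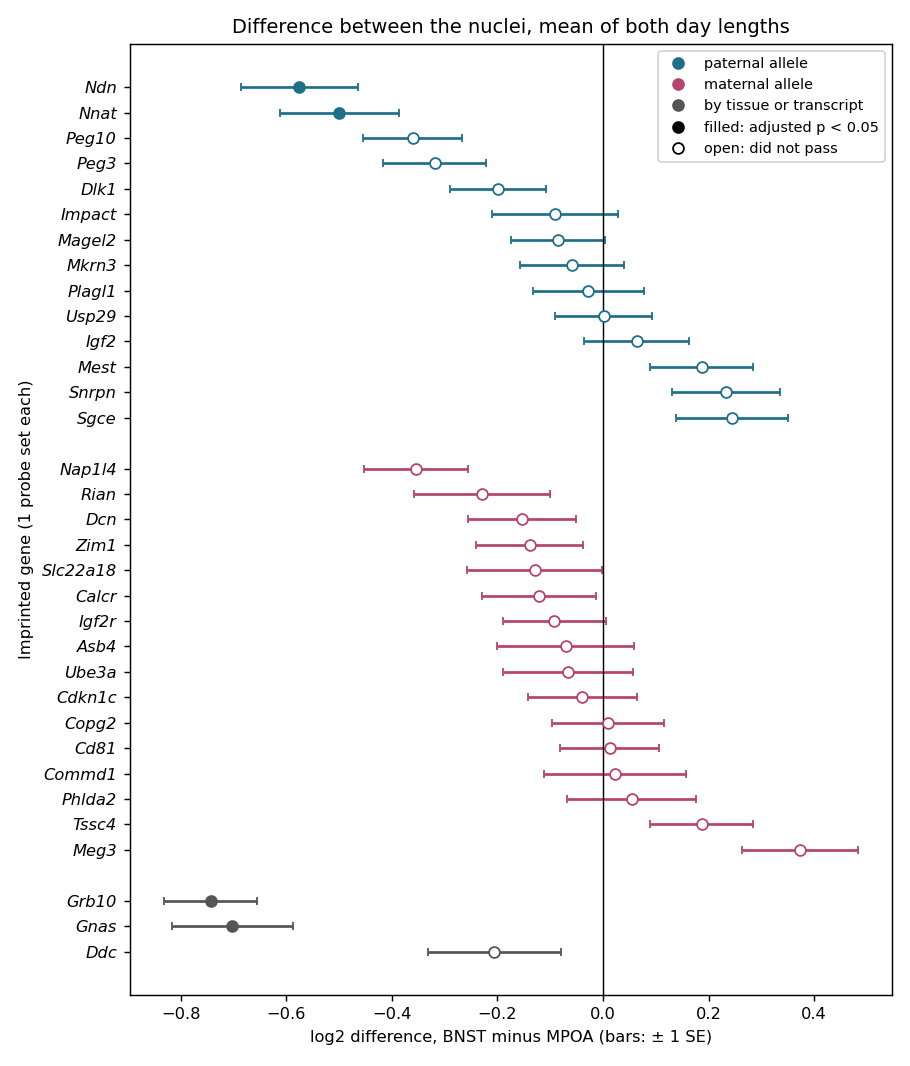
Difference between the nuclei (BNST minus MPOA, mean of both day lengths, log2 scale) for each of the 33 members, sorted within the 3 groups by known parental origin; bars are ± 1 SE and filled points passed the threshold. The 4 filled points, Ndn, Nnat, Grb10 and Gnas, lie between -0.74 and -0.50, and Meg3 has the highest value (0.37).

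Meg3, a long noncoding RNA read from the maternal copy, had the largest difference in the opposite direction. Its intensity was 2307, 2254 and 2089 in long-day and 1674, 2034 and 1691 in short-day MPOA. Long-day BNST arrays gave 3243, 2184 and 2432, and short-day ones 2428 and 2736. The difference of 0.37 ± 0.11 did not pass (adjusted p = 0.126, limma), and the long-day groups overlapped. In short days both BNST arrays lay above all MPOA arrays. All 5 Meg3 probe sets had differences above 0 (0.02 to 0.37), and 0 passed. With a trended and robust prior of the spread, Meg3 was among the genes called.

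**Figure D3:**
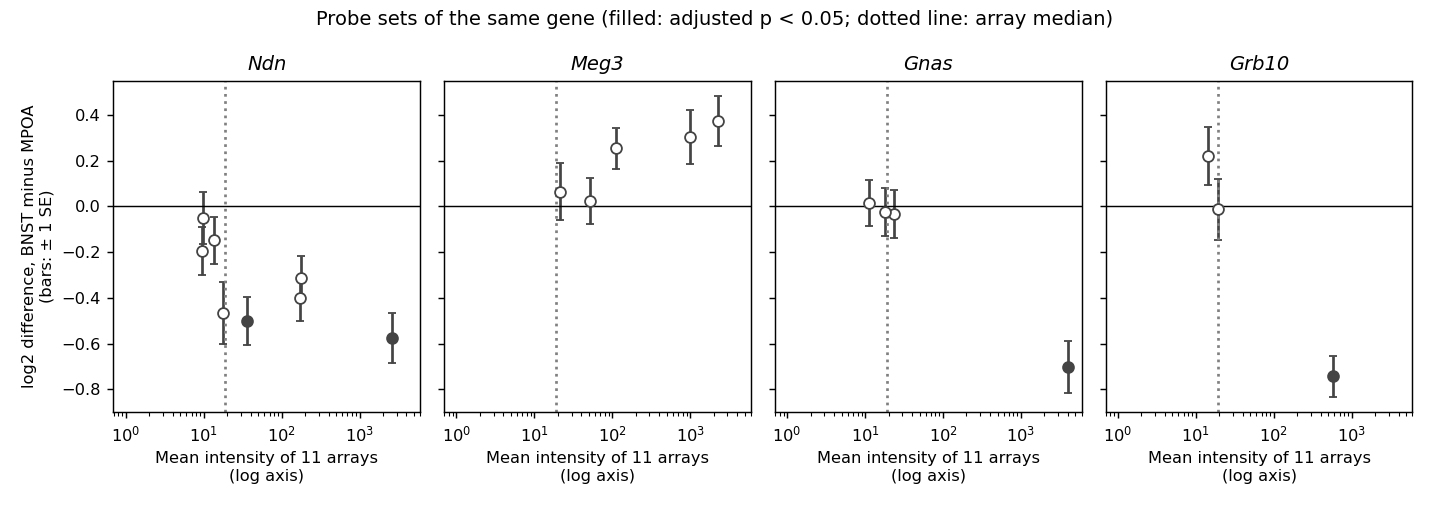
Difference between the nuclei (BNST minus MPOA, log2 scale, bars ± 1 SE) against mean intensity (log axis) for each probe set of Ndn, Meg3, Gnas and Grb10; filled points passed and the dotted line is the array median of 19. The 8 Ndn points lie below 0 and the 5 Meg3 points above it, while the dim probe sets of Gnas and Grb10 lie near or above 0.

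Neighbours within an imprinted cluster were measured on the same arrays, and in some clusters their values lay on both sides of 0. In the cluster of the Prader-Willi and Angelman syndromes, Ndn passed. Magel2, a further MAGE family gene of hypothalamic neurons, read 24 to 29 on all arrays, with a difference of -0.09 (95% interval -0.27 to 0.10). Mkrn3, a zinc finger gene known for its part in the timing of puberty, was at -0.06 (-0.27 to 0.15). Snrpn, a small ribonucleoprotein subunit, was at 0.23 (0.02 to 0.45, adjusted p = 0.366, limma), from its 1 own probe set, while 4 probe sets that it shares with another symbol were not used. Ube3a, the ubiquitin ligase that neurons read from the maternal copy, was at -0.07 (-0.32 to 0.19), and its 4 probe sets lay between -0.07 and -0.03.

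In the cluster of Dlk1 and Meg3, Meg3 was at 0.37 while its noncoding neighbour Rian was at -0.23 (-0.35 to -0.14 with 1 array left out) and Dlk1, a Notch-related membrane protein, at -0.20. Dlk1 read only 9 to 12. In the cluster of Peg10, the paternally expressed Sgce, the epsilon sarcoglycan of myoclonus dystonia, was at 0.24 ± 0.11 against -0.36 for Peg10. Calcr, the calcitonin receptor, read 10 to 17, below the array median on every array, and was at -0.12. Asb4 was at -0.07. In the cluster of the cell cycle inhibitor Cdkn1c (-0.04), Nap1l4 was at -0.35, the tetraspanin Cd81 at 0.01 (95% interval -0.18 to 0.21) and Tssc4 at 0.19. Phlda2, in the same cluster, was at 0.05 and Slc22a18 at -0.13. The neighbours Grb10 and Ddc were both below 0. Mest was at 0.19 and Copg2 at 0.01, which changed sign with single arrays left out. Peg3 was at -0.32, Zim1 at -0.14 and Usp29 at 0.00. Apart from Ndn and Grb10 none of these passed, and no difference between neighbours was tested.

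Within long days alone, Grb10 again had the smallest p between the nuclei, but 0 member probe sets passed (limma). At this day length 1 member was higher and 6 lower in the BNST at an unadjusted p under 0.05. Over all probe sets 0.128% passed, and 10.5% had an unadjusted p under 0.05. Grb10 was at -0.57 ± 0.12 (adjusted p = 0.0605, limma). Gnas was at -0.51 (-0.34 without the MPOA long-day array 2), Peg10 at -0.42 and Rian at -0.58, from 32, 29 and 37 in the MPOA to 20, 17 and 30 in the BNST. In these arrays 10 members had all BNST arrays below all MPOA arrays and 0 had them above. Of all genes 5.47% and 7.25% were separated in these directions (12.7% in either), and of all probe sets 5.5% and 6.69% (12.2% in either). Grb10 passed in long days without the MPOA array 6, and Rian passed without the BNST long-day array 3.

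In short days Grb10 (-0.91 ± 0.13, adjusted p = 0.00346, limma) and Gnas (-0.90 ± 0.17, adjusted p = 0.0245, limma) passed, 2 of 63 probe sets. Of all probe sets 0.354% passed, 0.208% as lower and 0.146% as higher. Both genes have a mean above 200. Of all 722 genes above that limit 3.19% passed in short days, 13 as higher and 10 as lower, and 63.6% were below 0. At an unadjusted p under 0.05 there were 3 members higher and 8 lower, against 10.3% of all probe sets. All BNST arrays lay above all MPOA arrays for 3 members (Meg3, Snrpn and Tssc4, against 8.86% of all probe sets) and below for 9 (against 10.6%, or 19.4% in either direction). By gene these shares were 9.42%, 12.2% and 21.6%. Ndn was at -0.74 (adjusted p = 0.0519, limma) and Nnat at -0.72 (adjusted p = 0.0658, limma). Without the MPOA array 6 the count of called probe sets was 2. It was 1 without the MPOA array 4 or 5 or the BNST array 4, and 0 without the BNST array 5 or with the spread taken from the short-day arrays alone. Whether the difference between the nuclei itself differed between day lengths was tested directly and did not pass for any member (limma), with or without the MPOA array 6. The short-day difference minus the long-day one was -0.34 for Grb10 (adjusted p = 0.629, limma), -0.39 for Gnas, -0.34 for Ndn and -0.45 for Nnat. Bright genes in general leaned the same way: of all 722 genes with a mean above 200, 67.9% were below 0, with a median of -0.10. This difference was -0.22 for Gnas without the MPOA long-day array 1, -0.17 for Ndn without the BNST short-day array 4 and -0.30 for Nnat after quantile normalization. Over the 33 members 2 had an unadjusted p under 0.05 above 0 and 1 below, and over all probe sets 0% passed and 8.34% had such a p.

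Markers of neuron types also differed between the nuclei, and their part in the results for imprinted genes was not tested. All 12 measured striatal neuron markers were higher in the BNST and 7 passed, 4 without the MPOA array 6 and 2 to 7 with any 1 array left out. Their mean log2 level was 6.19 to 6.72 on BNST arrays and 5.42 to 6.14 on MPOA arrays. Of the 17 hypothalamic and preoptic markers with a lower BNST level 3 were called (Gal, Lhx1 and Lhx8), and Otp was the 1 called as higher. Otp was still called without the MPOA short-day array 4 or the BNST long-day array 3. Its call was lost without any 1 of the other MPOA or long-day BNST arrays, the MPOA array 6 among them. The mean of this list was 4.86 to 4.96 in the BNST and 4.91 to 5.02 in the MPOA, so it overlapped. General neuronal markers were lower in 11 of 16, of which Elavl4 and Gap43 were called, 3 without the MPOA array 6 and 0 without the BNST short-day array 5, and their mean was 6.34 to 6.68 in the BNST and 6.58 to 6.78 in the MPOA. No marker was at 0. Astrocyte, oligodendrocyte, microglial, vascular, meningeal and ependymal lists had no member called, except Pecam1 of vessels without the MPOA array 6, and Cnp and Mbp of oligodendrocytes without the BNST short-day array 5.

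Day length was not followed by a called difference of any imprinted gene in either nucleus. In the MPOA 0 of 63 member probe sets passed (limma), as 0% of all did. At an unadjusted p under 0.05 there was 1 of 33 members, against 3.5% of all probe sets. Short minus long differences ran from -0.31 to 0.37 over the members, with a median of -0.01 and 16 above and 17 below 0. The standard errors were 0.12 to 0.18. The count of members past the threshold was also 0 without array 6.

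The member with the smallest p in the MPOA was Igf2r, the receptor that clears insulin-like growth factor 2 and sorts lysosomal enzymes. Long-day arrays read 19, 20 and 20 and short-day arrays 22, 25 and 30 (0.37 ± 0.13, adjusted p = 1, limma). The groups did not overlap, and array 6 was the highest. Its further probe set read 14, 13 and 16 against 13, 15 and 20. Meg3, at the intensities given above, was at -0.31 ± 0.15, with all short-day arrays below all long-day ones. Its next probe set read 1064, 1141 and 824 against 712, 1001 and 685, and its groups overlapped.

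Mest, a hydrolase-like gene of the paternal copy whose loss in mice impairs growth and maternal care, read 11, 11 and 12 under long days and 9, 11 and 9 under short days (-0.23 ± 0.13). Calcr read 12, 12 and 12 against 13, 13 and 17 (0.24 ± 0.14), again highest on array 6, without which it was at 0.12. Both are below the array median, where 1 unit of rounding is a large part of the difference. Groups did not overlap for 5 members, as higher for Calcr, Grb10 and Igf2r and as lower for Meg3 and Peg10. Over all probe sets 2.64% were separated as higher and 2.55% as lower, 5.19% together. By gene these shares were 2.71%, 2.81% and 5.52%.

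**Figure D4:**
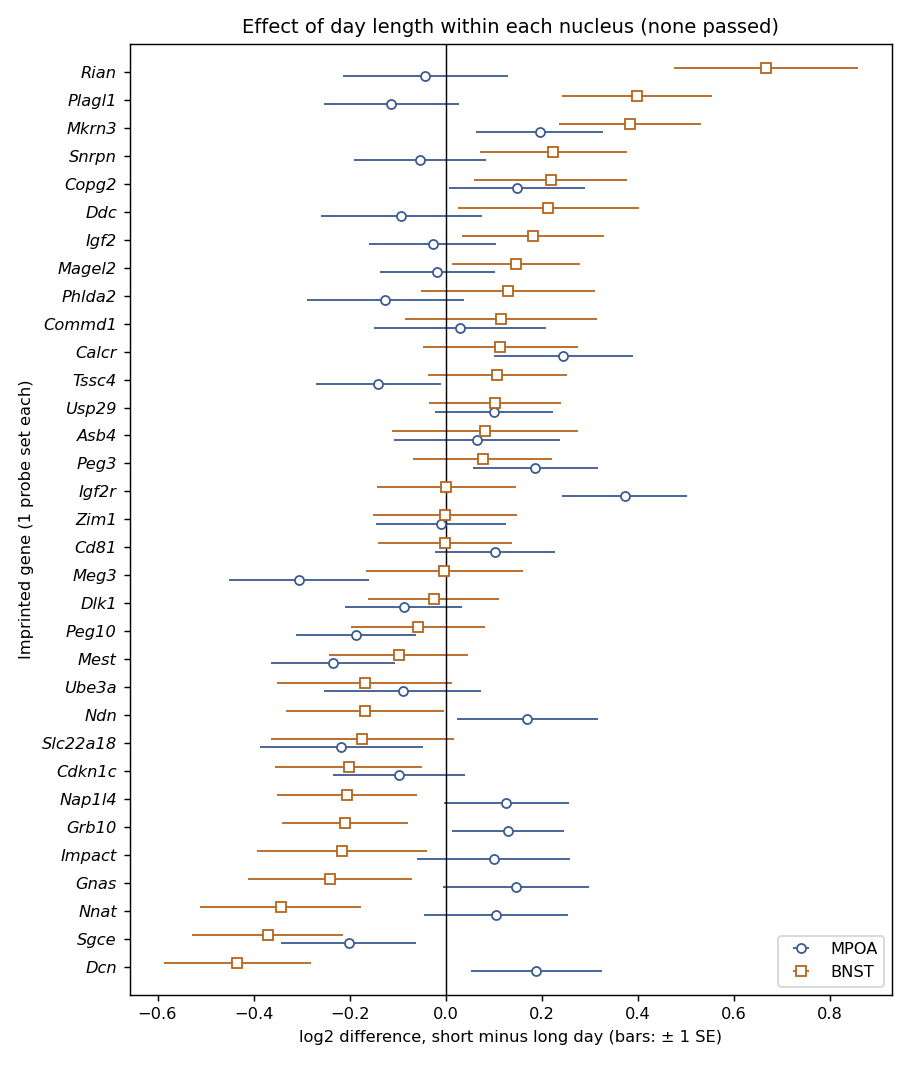
Effect of day length (short minus long, log2 scale, bars ± 1 SE) for each of the 33 members in the MPOA (circles) and the BNST (squares), sorted by the BNST value. No point passed the threshold; the BNST values run from -0.43 for Dcn to 0.67 for Rian.

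In the BNST 0 of 63 member probe sets passed between day lengths (limma), against 0.0442% of all probe sets. Without the MPOA array 6, 1 passed, a probe set of Meg3. At an unadjusted p under 0.05 there were 5 of 33 members, 3 higher and 2 lower, against 12.7% of all probe sets. The median of the members was -0.00, beside -0.03 over all genes, with 16 above and 17 below 0. The standard errors were 0.13 to 0.20.

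Rian, a maternally read noncoding RNA that hosts small nucleolar RNAs, had the smallest p. It read 20, 17 and 30 in long-day and 32 and 37 in short-day BNST (0.67 ± 0.19, adjusted p = 0.158, limma). The groups were apart by 2 units, 30 against 32. In the MPOA it read 32, 29 and 37 and then 33, 28 and 34, so the low values were those of the long-day BNST arrays 1 and 2. The 2 further Rian probe sets, both with means under 19, were at -0.20 and 0.07 in the BNST.

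Dcn, the matrix proteoglycan decorin of fibroblasts and meninges, read 17, 21 and 21 in long-day and 15 and 14 in short-day BNST (-0.43 ± 0.15, adjusted p = 0.237, limma). In the MPOA it read 18, 20 and 15 and then 19, 20 and 21. The difference of the day effects was -0.62 ± 0.20 (adjusted p = 0.471, limma). Of 16 further markers of meninges and fibroblasts, 8 were higher and 8 lower in short-day BNST, with 0 called.

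**Figure D5:**
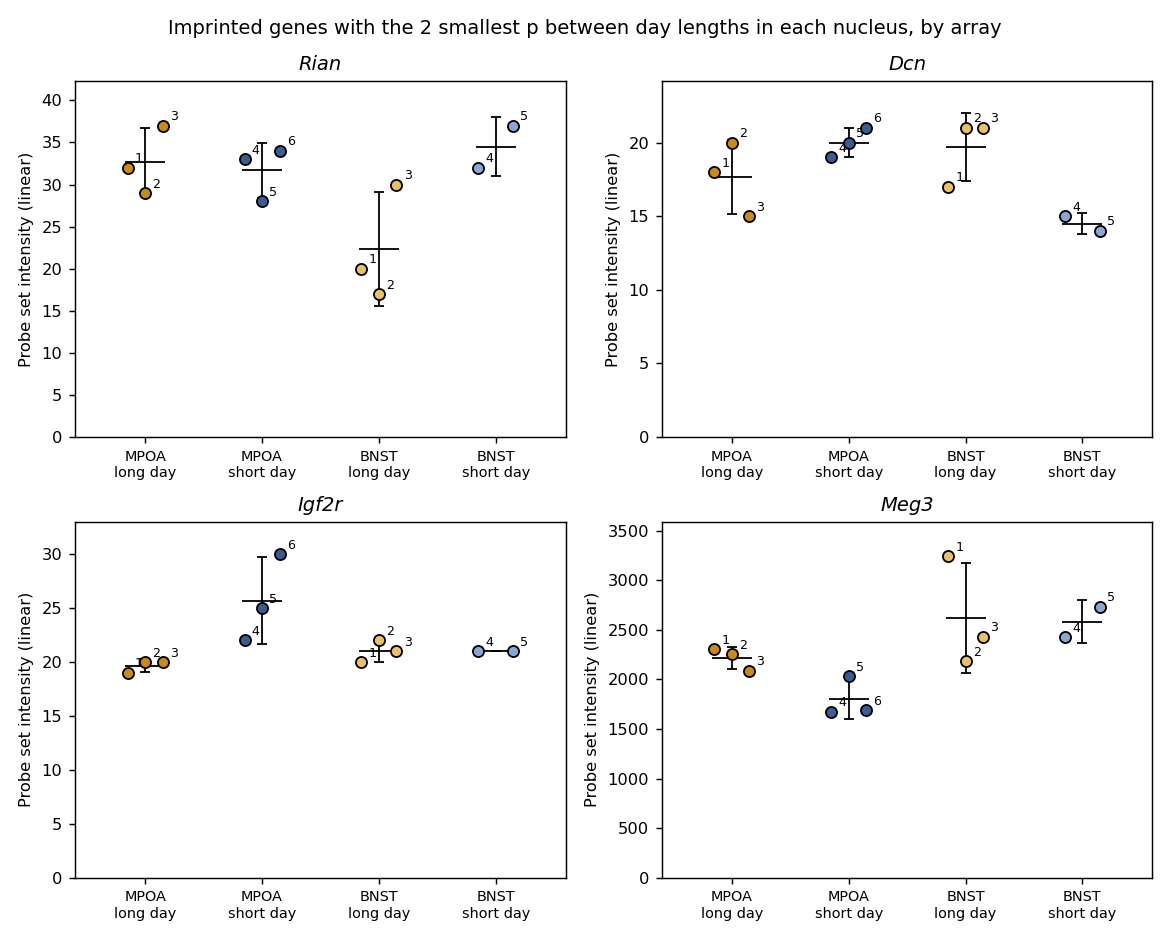
Intensity (linear scale from 0) of Rian, Dcn, Igf2r and Meg3 on each array, by nucleus and day length, with the sample number beside each point; bars are the group mean and its SD. None passed the threshold; the short-day BNST arrays of Rian (32 and 37) lie above and those of Dcn (15 and 14) below the long-day BNST arrays, and Igf2r is highest on the MPOA array 6 (30).

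Mkrn3 read 11, 14 and 12 in long-day and 16 and 16 in short-day BNST (0.38 ± 0.15, adjusted p = 0.283, limma). Its MPOA values were 13, 15 and 13 and then 16, 14 and 17, which overlapped. Plagl1, a growth-restraining zinc finger factor, read 15, 16 and 15 against 17 and 24 in the BNST (0.40 ± 0.16), where array 5 was highest and without which the difference was 0.15, and 18, 19 and 19 against 19, 18 and 15 in the MPOA. Its effects in the nuclei differed by 0.51 ± 0.21 (adjusted p = 0.554, limma), and by 0.26 without that array. Sgce read 54, 48 and 44 against 37 and 38 in the BNST (-0.37 ± 0.16) and 40, 32 and 45 against 37, 33 and 31 in the MPOA.

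Of the probe sets that are not the brightest of their gene, 2 stood out in short-day BNST, named after their values were seen. A Meg3 probe set read 13, 16 and 19 under long days and 27 and 32 under short days (0.89, adjusted p = 0.0964, limma), while the brightest Meg3 probe set was at -0.00. A Gnas probe set read 14, 16 and 13 against 25 and 20 (0.65, adjusted p = 0.106, limma), while the brightest was at -0.24. Probe sets of 1 gene thus gave different values in these cases.

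Grb10 was the only member with separated day length groups of opposite direction in the nuclei, higher in short-day MPOA and lower in short-day BNST at the intensities given above. Such a pattern, in either order, was present in 0.636% of all probe sets. Neither Grb10 day effect passed on its own (0.13 ± 0.12 in the MPOA and -0.21 ± 0.13 in the BNST). Long- and short-day BNST groups did not overlap for 11 of 33 members, 5 higher (Copg2, Mkrn3, Plagl1, Rian and Snrpn, against 10.2% of all probe sets) and 6 lower (Dcn, Gnas, Grb10, Nnat, Sgce and Ube3a, against 13.5%, or 23.7% in either direction). By gene these shares were 9.87%, 15.3% and 25.2%. All 7 members with a mean intensity above 200 had a difference below 0 in the BNST, as did 74.5% of all 722 genes above that limit.

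Averaged over the nuclei, 0 of 63 member probe sets passed between day lengths (limma), against 0.0133% of all, and 0 also without the MPOA array 6. At an unadjusted p under 0.05 there were 2 members above 0 (Mkrn3 and Rian) and 1 below (Sgce), against 9.02% of all probe sets. Mkrn3 was at 0.29 ± 0.10 (adjusted p = 0.436, limma), Sgce at -0.29 ± 0.11 and Rian at 0.31 ± 0.13. Igf2r followed at 0.19 ± 0.10. The paternally expressed members had 8 above and 6 below 0 and the maternally expressed ones 8 and 8.

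Other imprinted genes and the proteins that keep imprints were examined beside the members. Of 30 further imprinted genes with a probe set, 0 passed in any of the 7 comparisons (limma), with all arrays or with any 1 left out. Between the nuclei 16 were higher and 14 lower in the BNST, with a median of 0.02. An unadjusted p under 0.05 was found for 2, against 11.9% of all probe sets. The smallest p belonged to Jade1, a chromatin reader subunit, at 0.26 (adjusted p = 0.316, limma), followed by Gab1, a docking protein of growth factor receptors, at 0.25, and Gatm, an enzyme of creatine synthesis, at 0.19. In short-day BNST Bcl2l1, an inhibitor of apoptosis, was at -0.40 (adjusted p = 0.242, limma).

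Of 23 measured genes of imprint maintenance, which include DNA methyltransferases and the factors that bind methylated imprints, 0 passed in any of the 7 comparisons (limma), with all arrays or with any 1 left out. Between the nuclei 18 were higher and 5 lower in the BNST, with a median of 0.06, where 48.9% of all genes were lower. There was 1 unadjusted p under 0.05 in each direction, against 11.9% of all probe sets in either. Smc1a, a cohesin subunit, was at 0.31 (adjusted p = 0.236, limma), and Trim28, the corepressor that holds imprints silent, at -0.41 (adjusted p = 0.28, limma). Trim28 read 79 and 73 on the MPOA arrays 2 and 5 and 40 to 47 on the other MPOA arrays, against 35 to 45 in the BNST, and was at -0.26 without array 2. Between day lengths in the BNST, 8 were higher and 15 lower, where 55.1% of all genes were lower. Mbd3, a subunit of the nucleosome remodelling and deacetylase complex, was at -0.52 (adjusted p = 0.179, limma) and Yy1, a zinc finger factor, at -0.34 (adjusted p = 0.286, limma). A further Yy1 probe set, with a mean of 39.8, lay in the opposite direction at 0.40 (adjusted p = 0.234, limma).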

How the data were processed

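Per the file's values, the deposited table holds probe set intensities on a linear scale, rounded to whole numbers by the authors. The submitters' processing notes name RMA 3.4. Further steps were not given in the sources used here. A common median of 19 on all 11 arrays shows a normalization between arrays. Of all values 51.1% were 19 or less. No detection call was used. Probes designed for the house mouse may bind oldfield mouse RNA less well, so levels of different probe sets were not compared as amounts of RNA. Intensity served to choose the probe set that stands for a gene and to mark probe sets as dim or bright. The number of arrays limits the precision.

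Of 22690 probe sets, 64 controls were set aside. Names came from the platform annotation: 20380 of the 22626 tested carry 1 symbol (12393 genes), 691 several and 1555 none. A model of 4 group means was fitted to log2 intensities without pseudocount (limma 3.58.1, R 4.3.3, lmFit and eBayes, 7 residual and 12.9 prior degrees of freedom), with 7 two-sided contrasts, each adjusted over all probe sets with the Benjamini-Hochberg method (threshold 0.05) but not over the contrasts. The procedure was run on simulated arrays with independent noise in each value. Those arrays lacked differences shared by a whole array, so they do not bear on single calls here. Members and lists were chosen with earlier results of these data known. Values on every array are given for members past the threshold and, where fewer than 4 passed, for those with the smallest p. Deviations of samples sharing a number across nuclei correlated at -0.03 to 0.07, so numbers were not taken as pairs.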

Additional observations from a re-analysis of the deposited data

Results flagged for a closer look

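The brightest Grb10 probe set had opposite day length differences in the nuclei. In the MPOA all short-day arrays (756, 731 and 736) lay above all long-day arrays (665, 689 and 678), and in the BNST both short-day arrays (412 and 376) lay below all long-day arrays (475, 458 and 433). Neither day effect passed on its own. It was 0.13 ± 0.12 on the log2 scale in the MPOA (unadjusted p = 0.282, limma) and -0.21 ± 0.13 in the BNST (unadjusted p = 0.126, limma). The difference of the effects was -0.34 ± 0.18 and did not pass (adjusted p = 0.629, limma). Of all 22626 probe sets, 144 (0.636%) showed such a pattern of separated groups in either order. The difference of the effects was below 0 for 67.9% of all 722 genes with a mean above 200.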

How the results depend on the processing

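Differences of the members that passed or had the smallest p in a comparison kept their sign in the alternatives run. Other members with small differences could change sign, as Copg2 did between the nuclei. Between the nuclei 5 member probe sets passed. The count was 8 at an adjusted p of 0.10, 7 with a trended and robust prior, 6 with dim probe sets left out or with array weights, 5 with quantile normalization, and 2 to 5 with 1 array left out. With sample number as a random or a fixed replicate block it was 5 or 4. In long days the count of 0 became 1 with quantile normalization, with dim probe sets left out, with a trended and robust prior, with array weights and at 0.10, each time Grb10, and was 0 to 1 with 1 array left out. In short days the count of 2 became 4 with a trended and robust prior, 4 at 0.10, and 0 with only the groups compared in the fit, and ran from 0 to 3 with 1 array left out. Between day lengths in the BNST the count of 0 became 1 at 0.10 and ran from 0 to 1 with 1 array left out. With the replicate block no call of Grb10, Gnas or Nnat was lost between the nuclei, and the second Ndn probe set lost its call with the fixed block. Day effects within a nucleus could not be fitted with a fixed block, since no number is shared by both day lengths. The causes of these changes were not tested. Near the array median, rounding and the unknown binding of oldfield mouse RNA limit what dim members can show.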
